A study of Mus musculus with 10 samples.

Results

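The genes described here encode the proteins of the cytosolic ribosome, 78 protein-coding genes of the 55335 in the deposited table, of which 46 carry a large subunit name (Rpl) and 32 a small subunit name (Rps or Rpsa). They were taken by symbol from the GENCODE vM21 annotation of build GRCm38 (mm10), which also gives the gene coordinates below. S6 kinase genes and pseudogenes were left out, and so were 8 genes that form paralog pairs (Rpl3, Rpl3l, Rpl22, Rpl22l1, Rpl39, Rpl39l, Rps27 and Rps27l). The rule itself uses no measured value, though the family was chosen with earlier results of these data known. By their symbols and known products, 73 of the 78 encode subunit proteins, and the label holds for these. The other 5 are copies or relatives: Rpl10l (a retrogene copy of Rpl10 known from male germ cells), Rpl36al, Rpl7l1 (a relative of Rpl7), Rps27rt (a retrocopy of Rps27) and Rps19bp1, whose product binds RPS19 and Sirt1 and is no part of the ribosome.

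RNA was measured in whole hearts of male wild-type mice whose mothers had received anti-Müllerian hormone (AMH, a hormone of the ovary and fetal testis) during pregnancy, 5 samples called PAMH below, and in hearts of male wild-type mice whose mothers had received the PBS vehicle, 5 control samples. The treatment is a way to model polycystic ovary syndrome in the mother and her offspring. The labels give neither the age of the mice nor the litter or dam of each sample, and whether any of them were litter mates is not stated, so p-values cover the spread among these hearts only. Each value is in FPKM, fragments scaled by the length of the transcript and the size of the library, so levels of different genes can be set side by side per length. Possible sharing of reads with pseudogene copies limits such comparisons, as described further below. The depth of each library is unknown, because the table holds no counts.

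A mammalian ribosome is built from a large (60S) subunit, which joins amino acids, and a small (40S) subunit, which reads the message. Most of its proteins are needed in 1 copy per ribosome, and their messages are among the most abundant of most cells. Many of these messages start with a C followed by a run of pyrimidines at the 5′ end, the TOP (terminal oligopyrimidine) motif, through which mTORC1 and Larp1 control their translation. In the heart, ribosome production is known to increase during growth and hypertrophy of the muscle.

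The start regions of 6 of the 7 genes that passed the test below are shown first (Rps27a had no window in the table), since the pyrimidine run is the sequence feature for which this gene family is known. A window of 250 bases before to 50 after the start was in the RefSeq table (build GRCm38.p6) for 59 of the 78 genes. A run of 8 or more C or T on the sense strand, beginning within 20 bases of the start, was in 27 of these 59 (45.8%), in 19 of 35 large and 8 of 24 small subunit genes. The same run was in 20.5% of the 6918 tested genes with a window and in 19.6% of all 27025 genes of that table. Printed are 40 bases before and 20 after the annotated start, 5′ to 3′ on the gene's own strand, with the run in capitals. Of these 6 genes, Rpl4, Rpl13 and Rps26 held a run and Rpl9, Rpsa and Rpl7l1 held none. Rpl7a, which had the longest run of the 59 (21 bases), and Rpl34, the large subunit gene with the smallest change, did not pass and are given for comparison.
Rpl4: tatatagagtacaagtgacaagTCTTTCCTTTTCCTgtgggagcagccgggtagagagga
Rpl13: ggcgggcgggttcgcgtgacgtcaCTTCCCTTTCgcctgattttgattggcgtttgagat
Rps26: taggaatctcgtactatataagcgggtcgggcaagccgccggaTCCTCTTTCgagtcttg
Rpl9: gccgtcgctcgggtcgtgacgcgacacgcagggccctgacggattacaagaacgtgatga
Rpsa: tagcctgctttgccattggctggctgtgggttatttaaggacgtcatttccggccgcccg
Rpl7l1: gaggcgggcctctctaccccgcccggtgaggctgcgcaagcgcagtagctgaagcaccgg
Rpl7a: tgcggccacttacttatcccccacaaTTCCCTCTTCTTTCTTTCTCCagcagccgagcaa
Rpl34: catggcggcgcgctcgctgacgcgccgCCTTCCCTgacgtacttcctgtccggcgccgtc
These lie, in the same order, at chr9:64173347-64173406 (plus strand), chr8:123102310-123102369 (plus strand), chr10:128626487-128626546 (minus strand), chr5:65391412-65391471 (minus strand), chr9:120127726-120127785 (plus strand), chr17:46782637-46782696 (minus strand), chr2:26910767-26910826 (plus strand) and chr3:130730379-130730438 (minus strand). The run stood both in genes with a call and in genes without one. A run near an annotated start is a description of the letters, and where transcripts begin in these hearts was not measured.

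Motifs known from promoters were searched on both strands of the whole 300-base window. The ETS core CCGGAA was in 32 of the 59 genes (54.2%), against 32.7% of tested genes and 16.7% of all genes of the table. The SP1 core GGGCGG was in 66.1% of the ribosomal protein genes and in 71.0% of tested genes. The YY1 core AAGATGGC (6.78% against 5.94%) and the TATA box letters TATAAA (6.78% against 8.99%) were at like shares in both. Of the 6 genes with a window that passed, Rps26, Rpsa and Rpl7l1 held the ETS core, Rpl13, Rpsa and Rpl7l1 the SP1 core, and Rpl4 and Rpl9 held neither.

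Some facts of the samples bear on all values below. The FPKM of a sample summed to between 654350 and 717453, and the mitochondrial genes with their nuclear copies took 78.9% ± 0.815 of it in controls and 76.3% ± 2.32 in PAMH hearts (SD, n = 5 each). The remaining FPKM was therefore 8.46% higher in PAMH hearts, 160863 ± 11690 against 148309 ± 3881. The library of PAMH replicate 4 stood apart, with 16113 genes above 0. Its summed red cell level was 863 FPKM against 97.4 to 437 elsewhere (0 of 5 tested red cell genes called between the groups). Detection was also low in PAMH replicate 5, at 18037 genes, while the remaining libraries held 19449 to 21097. The 10 cardiomyocyte markers summed to 10438 to 13084 FPKM in controls and 9244 to 15249 in PAMH hearts, with none of 10 past the test. Of the markers of other cells, the smooth muscle sum was 112 to 147 FPKM in controls and 155 to 206 in PAMH hearts (1 of 7 tested called, Acta2 higher), and the epicardial sum 3.69 to 4.89 and 6.79 to 9.80 (2 of 3, Upk3b and Aldh1a2 higher). Of the 6 epicardial markers listed only these 3 were tested, and the one not called had a log2 fold change of -0.20. Over all genes tested, 4.95% were called higher and 1.24% lower, which applies to each of these short lists. The endothelial sum was 130 to 175 and 115 to 131 FPKM (1 of 10, Cldn5 lower), the fibroblast sum 344 to 381 and 292 to 412 (0 of 9), and the macrophage sum 173 to 214 and 171 to 218 (1 of 6, Cd68 higher). The atrial sum was 46.8 to 129 and 78.7 to 217 FPKM and the skeletal muscle sum 570 to 784 and 548 to 711, each with 1 marker tested and none called. No adipocyte marker reached the level needed for the test, and Lep was listed at 0 in all samples. The part of these differences in the results below was not tested, and in whole tissue a change of cell numbers and a change of RNA per cell cannot be told apart.

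RNA of both subunits was higher in PAMH hearts, by about the same amount. The 46 large subunit genes summed to 3845, 3948, 3946, 3722 and 3859 FPKM in control replicates 1 to 5 and to 4328, 4087, 4244, 5305 and 4814 FPKM in PAMH replicates 1 to 5. The 32 small subunit genes summed to 2730, 2769, 2762, 2649 and 2690 FPKM in controls and to 3151, 2856, 3005, 3650 and 3344 FPKM in PAMH hearts. Every PAMH sample was above every control in both sums, replicate 4 was the highest and replicate 2 the lowest of the PAMH hearts. The large subunit mean went from 3864 ± 92.5 to 4556 ± 499 FPKM, 17.9% higher, and the small subunit mean from 2720 ± 50.7 to 3201 ± 309 FPKM, 17.7% higher (SD, n = 5 each). Without PAMH replicate 4 the differences were 13.1% and 13.6%. The SD of the PAMH hearts exceeded that of the controls in both sums, while the ratio of large to small subunit FPKM was 1.42 ± 0.0129 in controls and 1.42 ± 0.0310 in PAMH hearts.

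As a share of the FPKM outside the mitochondrial genes, the groups overlapped. The 78 genes made up 4.43%, 4.33%, 4.58%, 4.35% and 4.51% of it in controls and 4.53%, 4.40%, 5.0%, 5.05% and 5.12% in PAMH hearts. PAMH replicates 1 and 2 lay within the range of the controls and replicates 3, 4 and 5 above it. The mean share was 4.44% ± 0.107 in controls and 4.82% ± 0.328 in PAMH hearts (SD, n = 5 each), a relative difference of 8.57% in place of the 17.8% of the summed FPKM.

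**Figure D1:**
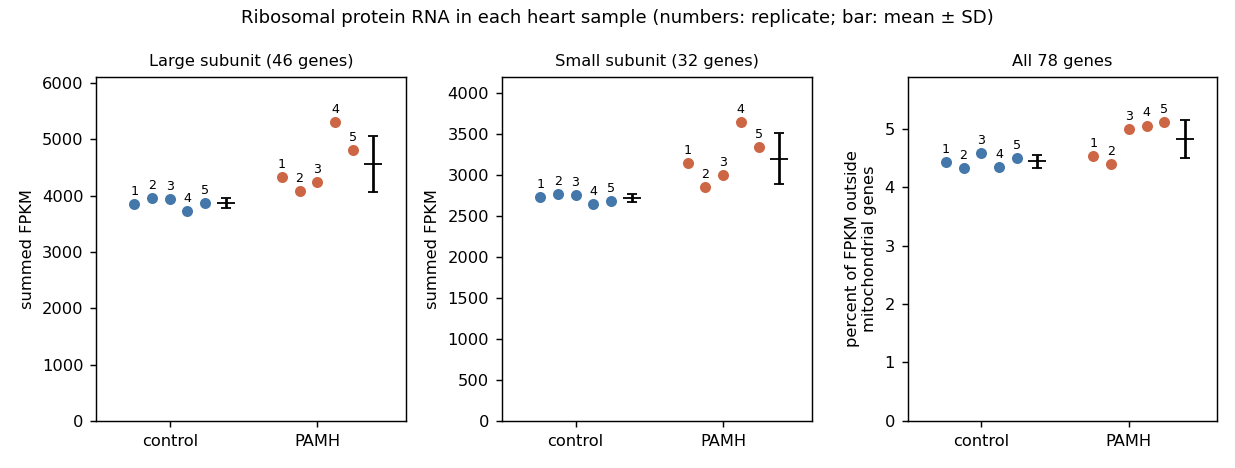
Summed FPKM of the large subunit genes (left) and the small subunit genes (middle), and the percent of FPKM outside mitochondrial genes taken by all 78 genes (right), on the y axes from 0. Points are single hearts numbered by replicate and bars are the mean ± SD of 5. All PAMH hearts lie above all controls in both sums, and PAMH replicates 1 and 2 lie among the controls in the percent.

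Gene by gene, 77 of the 78 reached the mean of 1 FPKM needed for the test, and Rpl10l was listed at 0 in all 10 samples. Of these 77, 7 rose and 0 fell at an adjusted p under 0.05 (limma on log2(FPKM + 1), Benjamini-Hochberg over all 9439 genes tested), and 70 did not pass. The 7 were Rpl4, Rpl9, Rpl13 and Rpl7l1 of 45 large subunit genes and Rps26, Rps27a and Rpsa of 32 small subunit genes. That is 9.09% of the 77, against 4.95% of all genes tested called higher and 1.24% called lower. All 77 had a positive log2 fold change, a direction that 67.3% of all genes shared; with each sample rescaled to the same sum outside the mitochondrial genes 70 of the 77 were positive, with median ratio scaling 75 and with quantile normalization 69. Under the first of these scalings and under median ratio scaling none of the 7 calls was kept. At an unadjusted p under 0.05, 47 were higher (29 large, 18 small), against 19.6% of all genes. In 12 of the 77, 6 of each subunit, every PAMH heart was above every control, against 6.74% of all genes, among them Rpl4, Rpl9, Rpl13, Rpl23, Rpl24, Rpl27a, Rps15, Rps23, Rps26, Rps27a and Rpsa.

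The differences were small. The median log2 fold change was 0.20 in the large and 0.23 in the small subunit, against 0.07 over all genes tested, and single genes ranged from 0.04 (Rpl34) to 0.63 (Rpl29). Among the control hearts, the coefficient of variation of these genes had a median of 6.0%. It ran from 1.02% (Rpl37) to 26.8% (Rpl29), and 3 genes exceeded 15%. In the summed FPKM the PAMH hearts varied more than the controls, as given above.

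**Figure D2:**
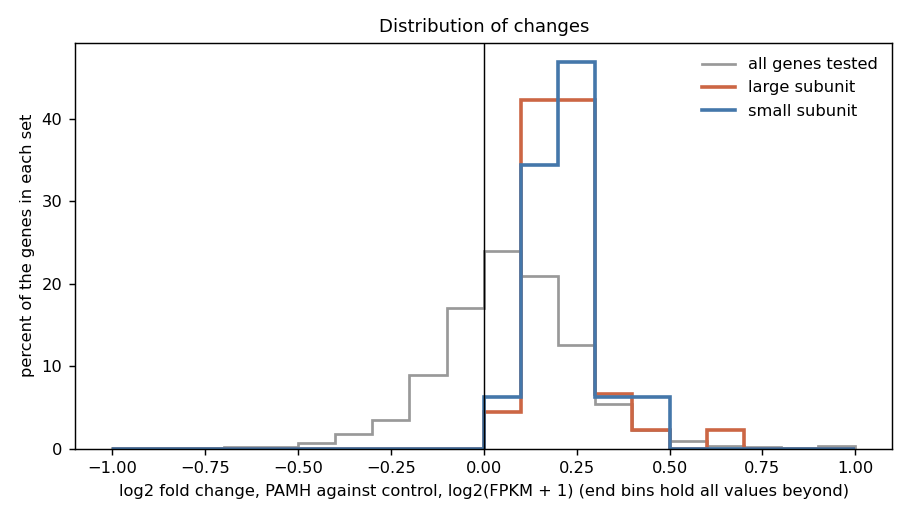
Percent of genes (y axis) by log2 fold change, PAMH against control, on the log2(FPKM + 1) scale in steps of 0.1 (x axis), for all genes tested, 45 large and 32 small subunit genes; the end bins hold all values beyond them. On the deposited scale both subunits lie right of 0, where 67.3% of all genes also lie, and their curves overlie each other.

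**Figure D3:**
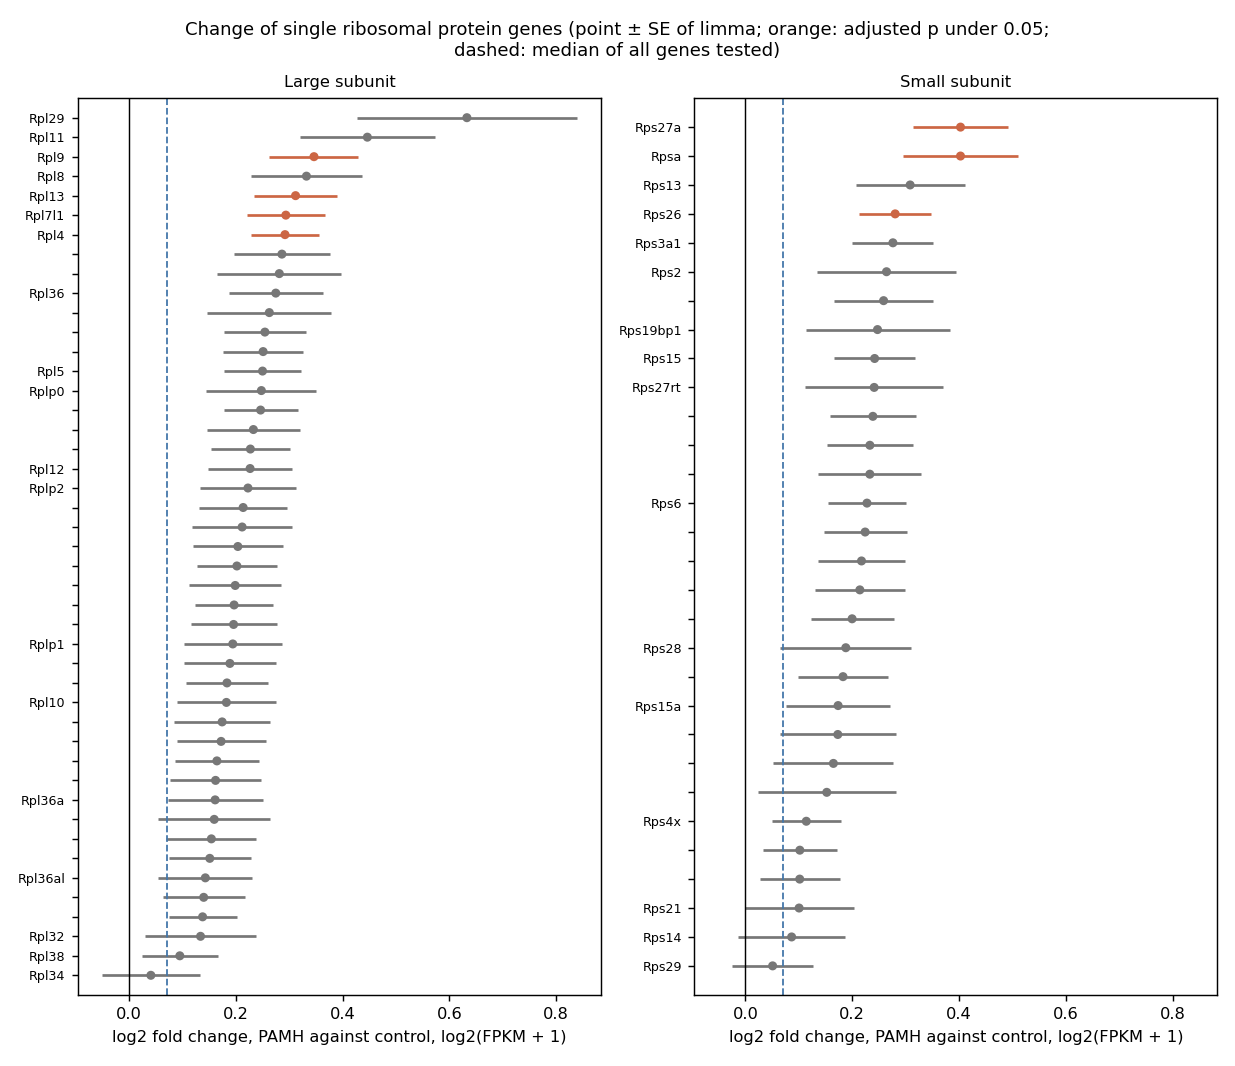
Log2 fold change of 75 of the 77 tested genes, PAMH against control, with its limma standard error (x axis), by gene and subunit (y axis, labelled for genes named by the rule of selection), with the median of all genes dashed. The 7 genes with an adjusted p under 0.05 are orange, and Rpl29 has the largest fold change and the widest error.

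In the large subunit, 1 of 7 genes of the exit tunnel and its rim rose, with a median log2 fold change of 0.20 over the 7. In groups this small 1 or 2 calls, here and below, are to be read against the 4.95% of all genes called higher. It was Rpl4 (ENSMUSG00000032399, chromosome 9, 64173375 to 64178666, plus strand), whose protein reaches into the wall of the tunnel through which the new chain leaves. Rpl4 stood at 137, 134, 138, 134 and 134 FPKM in control replicates 1 to 5 and at 183, 154, 156, 172 and 167 FPKM in PAMH replicates 1 to 5. The controls lay within a few FPKM of each other and every PAMH heart was above them, replicate 1 being the highest. The mean went from 135 ± 2.08 to 166 ± 11.8 FPKM (SD, n = 5 each), a log2 fold change of 0.29 with an SE of 0.06 (limma adjusted p = 0.0187). The others of this group did not pass, from 0.14 for Rpl23a (adjusted p = 0.21) to 0.20 for Rpl19 (adjusted p = 0.164), and Rpl17, Rpl26, Rpl31 and Rpl35 lay between them.

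Among the 30 other core proteins of the large subunit, 2 rose (6.67%, near the 4.95% of all genes), and the median log2 fold change was 0.21. Rpl9 (ENSMUSG00000047215, chromosome 5, 65388364 to 65391444, minus strand), a protein near the site where elongation factors bind, stood at 48.1, 47.5, 52.4, 46.7 and 49.1 FPKM in controls and at 64.2, 54.5, 55.4, 70.9 and 67.7 FPKM in PAMH hearts. PAMH replicates 1, 4 and 5 were the highest and the groups did not overlap. Its mean went from 48.7 ± 2.22 to 62.5 ± 7.33 FPKM (a log2 difference of 0.35 with an SE of 0.08, adjusted p = 0.0317).

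Rpl13 (ENSMUSG00000000740, chromosome 8, 123102350 to 123105244, plus strand), one of the core proteins without a counterpart in bacteria, stood at 81.1, 82.5, 85.4, 82.0 and 80.4 FPKM in controls and 99.5, 93.5, 94.3, 122 and 105 FPKM in PAMH hearts. PAMH replicate 4 was well above the rest and the groups again did not overlap. The mean went from 82.3 ± 1.91 to 103 ± 11.8 FPKM (0.31 on the log2 scale, SE 0.08, adjusted p = 0.0356). Rpl8, which lies close to the peptidyl transferase centre, was at 145 and 184 FPKM on average (log2 fold change 0.33, adjusted p = 0.0762) and did not pass.

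The largest log2 fold change of all 77 did not pass either. It belonged to Rpl29, a small basic protein, at 47.3, 68.2, 50.3, 47.7 and 83.2 FPKM in controls and 57.7, 87.2, 84.8, 116 and 120.5 FPKM in PAMH hearts. Control replicate 5 lay near PAMH replicates 2 and 3, and PAMH replicate 1 lay among the controls. Its mean went from 59.3 ± 15.9 to 93.2 ± 25.6 FPKM (a log2 difference of 0.63 with an SE of 0.21, adjusted p = 0.0866). At the other end, Rpl34 stood at 17.4 ± 1.52 and 18.0 ± 2.27 FPKM, a log2 fold change of 0.04 that was smaller than its SE of 0.09 (adjusted p = 0.819). Rpl38, known for its part in translating a subset of Hox messages, and Rpl32 were next lowest, at 0.10 (adjusted p = 0.445) and 0.13 (adjusted p = 0.46). Rpl36, below only Rplp1 in level within the large subunit, was at 318 and 386 FPKM (log2 fold change 0.28, adjusted p = 0.0835). The X-linked Rpl10, which is added late at the tRNA sites, and Rpl36a had log2 fold changes of 0.18 and 0.16 and did not pass (adjusted p = 0.258 and 0.293).

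The 5S RNP joins Rpl5 and Rpl11 with 5S rRNA, and outside the ribosome this particle is known to hold Mdm2 and so to stabilise p53. Neither of its 2 genes passed, though both had an unadjusted p under 0.05. Rpl11 stood at 32.6, 31.9, 32.7, 42.0 and 43.8 FPKM in controls and 39.1, 45.4, 53.4, 58.9 and 54.7 FPKM in PAMH hearts. Control replicates 4 and 5 were higher than the other controls and above PAMH replicate 1, so the groups overlapped. The mean of Rpl11 went from 36.6 ± 5.78 to 50.3 ± 7.94 FPKM (0.45 on the log2 scale, SE 0.13, adjusted p = 0.0564). Rpl5 was at 35.7 ± 1.47 and 42.7 ± 3.70 FPKM (a log2 difference of 0.25 with an SE of 0.07, adjusted p = 0.0611).

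The P stalk, which recruits the elongation factors, is made of Rplp0 and pairs of Rplp1 and Rplp2, and Rpl12 sits at its base. None of these 4 genes passed, and their median log2 fold change was 0.22. Rplp1 had the highest level of all 78 genes, with 389.6 ± 12.6 FPKM in controls and 449.7 ± 67.9 in PAMH hearts (log2 fold change 0.19, adjusted p = 0.218). Rplp0 went from 281 ± 20.5 to 336 ± 56.8 FPKM (0.25, adjusted p = 0.165). Rplp2 and Rpl12 were several times lower in level, at 50.7 and 34.3 FPKM in controls, with log2 fold changes of 0.22 and 0.23 (adjusted p = 0.153 and 0.103).

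Of the 3 copies and relatives under large subunit names, 1 rose. Rpl7l1 (ENSMUSG00000063888, chromosome 17, 46773907 to 46782672, minus strand), a relative of Rpl7 known from particles that mature into the large subunit, stood at 8.55, 9.14, 8.69, 10.1 and 8.71 FPKM in controls and 11.3, 11.9, 10.1, 12.2 and 11.1 FPKM in PAMH hearts. The groups met at control replicate 4 and PAMH replicate 3, and all other PAMH hearts were above all controls. The mean went from 9.04 ± 0.633 to 11.3 ± 0.831 FPKM (0.29 on the log2 scale, SE 0.07, adjusted p = 0.0357). Rpl36al, a copy of Rpl36a, was at 19.5 and 21.7 FPKM (0.14, adjusted p = 0.346), and Rpl10l was the gene listed at 0.

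In the head of the small subunit, 1 of 14 genes rose (7.14%, near the 4.95% of all genes), and the median log2 fold change was 0.22. Rps27a (ENSMUSG00000020460, chromosome 11, 29545846 to 29548109, minus strand) encodes ubiquitin fused to a ribosomal protein, from which both are cut. It stood at 34.7, 32.2, 35.7, 37.2 and 43.1 FPKM in controls and 53.9, 43.9, 48.0, 44.8 and 52.3 FPKM in PAMH hearts. Control replicate 5 came within 1 FPKM of PAMH replicate 2, yet all PAMH hearts were above all controls, and unlike most of the family the highest was replicate 1. Its mean went from 36.6 ± 4.08 to 48.6 ± 4.43 FPKM (a log2 difference of 0.40 with an SE of 0.09, adjusted p = 0.0214).

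The other 13 genes of the head did not pass. Rps15, the highest small subunit gene in level, was at 339.7 ± 12.8 FPKM in controls and 403 ± 43.0 in PAMH hearts (log2 fold change 0.24, adjusted p = 0.076), with no overlap between the groups. Rps3, which lines the channel where the message enters, had a log2 fold change of 0.22 (adjusted p = 0.104). Rps29 had the smallest of the small subunit, 0.05, at 139.7 ± 10.5 and 145 ± 11.2 FPKM (adjusted p = 0.718). Rps28, near the channel where the message leaves, was low in level, 16.1 and 18.5 FPKM (log2 fold change 0.19, adjusted p = 0.377).

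In the body and platform of the small subunit, 2 of 16 genes rose (12.5%, against 4.95% of all genes), and the median log2 fold change was 0.22. Rps26 (ENSMUSG00000025362, chromosome 10, 128624534 to 128626747, minus strand) contacts the message just upstream of the start codon and is one of the genes mutated in Diamond-Blackfan anaemia. It stood at 47.1, 48.7, 46.6, 47.4 and 48.5 FPKM in controls and 56.6, 53.4, 54.8, 64.7 and 61.9 FPKM in PAMH hearts. The controls were close together, and PAMH replicates 4 and 5 were the highest. The mean went from 47.7 ± 0.898 to 58.3 ± 4.79 FPKM (0.28 on the log2 scale, SE 0.07, adjusted p = 0.0322).

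Rpsa (ENSMUSG00000032518, chromosome 9, 120127689 to 120132369, plus strand), also known as the laminin receptor, stood at 104, 113, 107, 100.4 and 105 FPKM in controls and 141, 116, 122, 184 and 147 FPKM in PAMH hearts. PAMH replicate 4 was far above the others, and PAMH replicate 2 was just above the highest control. The mean went from 106 ± 4.78 to 142 ± 26.6 FPKM (a log2 difference of 0.40 with an SE of 0.11, adjusted p = 0.0474).

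The other 14 genes of the body and platform did not pass. Rps3a1, a platform protein beside Rps26, was nearest to the threshold, from 245 ± 12.1 to 298 ± 28.0 FPKM (0.28 on the log2 scale, SE 0.08, adjusted p = 0.0504). Rps13 had a log2 fold change of 0.31 (adjusted p = 0.0895). Rps6, the protein phosphorylated by the S6 kinases, was at 108 ± 4.42 and 127 ± 11.5 FPKM (a log2 difference of 0.23 with an SE of 0.07, adjusted p = 0.0826). The X-linked Rps4x had a log2 fold change of 0.11 (adjusted p = 0.301), and Rps14, at the decoding platform, and Rps21 had 0.09 and 0.10 (adjusted p = 0.638 and 0.583). Rps2, at the message entry channel, came after Rps15 and Rps3a1 in level, at 238 ± 32 and 289 ± 55.3 FPKM (0.26, adjusted p = 0.238), and Rps15a was the lowest of the 30 small subunit proteins at 14.5 and 16.7 FPKM (0.17, adjusted p = 0.298). Of the relatives under small subunit names, Rps27rt was at 34.1 and 41.3 FPKM (0.24, adjusted p = 0.277) and Rps19bp1 at 3.70 and 4.57 FPKM (0.25, adjusted p = 0.287), neither past the test.

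**Figure D4:**
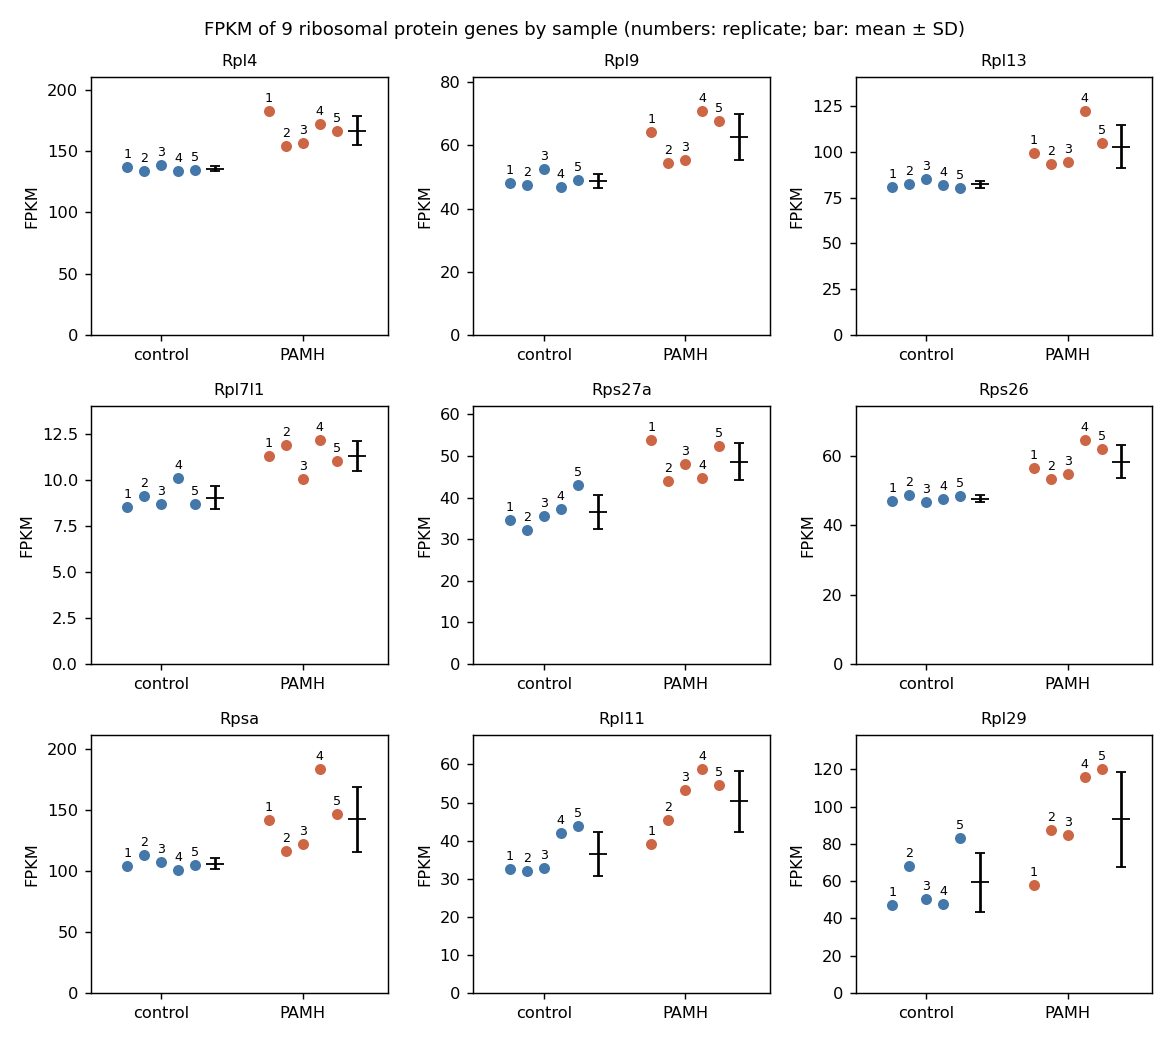
FPKM (y axes, from 0) of the 7 genes that passed the test and of Rpl11 and Rpl29, the large subunit genes with the largest fold changes, in each control and PAMH heart. Points are numbered by replicate and bars are the mean ± SD of 5. The groups are apart in Rpl4, Rpl9, Rpl13, Rps27a, Rps26 and Rpsa, meet in Rpl7l1, and overlap in Rpl11 and Rpl29.

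The PAMH hearts differed among themselves more than the controls did. Of the 77 genes, 50 were above all 5 controls in PAMH replicate 1, 24 in replicate 2, 50 in replicate 3, 75 in replicate 4 and 70 in replicate 5. The highest of the 10 samples was PAMH replicate 4 for 56 genes and PAMH replicate 5 for 14, and it was a PAMH heart for all 77. The lowest sample was a control for 70 of the 77. These counts were not made over all genes, so they do not separate the family from a shift of the whole library. Over all genes tested, the median log2 deviation from the control mean was 0.128, 0.0818, 0.0113, 0.104 and 0.0593 in PAMH replicates 1 to 5. It was 0.146, 0.0582, 0.144, 0.409 and 0.288 in the large subunit and 0.174, 0.0499, 0.149, 0.430 and 0.300 in the small. PAMH replicate 4 was also the library with the fewest genes above 0 and the highest red cell level. Only that library held fewer detected genes than PAMH replicate 5 (18037), whose red cell sum was 208 FPKM. Whether detection bears on the subunit values of these 2 hearts was not tested.

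The count of 7 depended on single libraries. Without PAMH replicate 4 it was 9 (all genes 5.8% called higher), without replicate 3 it was 16 (10.4%), without replicate 2 it was 13 (3.75%), without replicate 1 it was 3 (2.39%) and without replicate 5 it was 1, Rpl4 (2.75%). Without control replicates 1, 2, 3, 4 and 5 in turn it was 0 (2.36%), 3 (3.93%), 0 (2.13%), 2 (2.46%) and 1 (2.41%). Without PAMH replicates 4 and 5 together none of the 77 passed (2.91%), and the median log2 fold change was 0.12 in both subunits against 0.07 over all genes.

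It depended on the scaling too. With each sample rescaled to the same sum outside the mitochondrial genes, 0 of the 77 passed (all genes 2.29% higher), and the medians were 0.09 and 0.11 for the large and small subunit. With median ratio scaling 0 passed as well (2.29%), with medians of 0.12 and 0.14. Quantile normalization called 3, Rpl4, Rpl13 and Rpsa (2.48%), with medians of 0.08 and 0.10. Rescaling to the same FPKM sum, mitochondrial genes included, called 14 (5.91%), with medians of 0.25 and 0.27. Under these 4 scalings the calls over all genes went from 467 higher and 117 lower to 216 and 210, 215 and 190, 234 and 246, and 558 and 85. Other settings moved the count along with the share of all genes called higher: 2 with no filter on low values (0.732%), 14 with a filter at a mean of 5 FPKM (11.6%) and 16 with array weights (11%). Set against the median of all genes, the large subunit was 0.13 above it and the small 0.15 as reported, and over the 23 alternatives the distance ran from 0.05 to 0.20 and from 0.05 to 0.22. No setting called any of the 77 lower, and of the 7, Rpl4 was called under the most alternatives, 15 of 23, and Rpl9 under the fewest, 9.

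**Figure D5:**
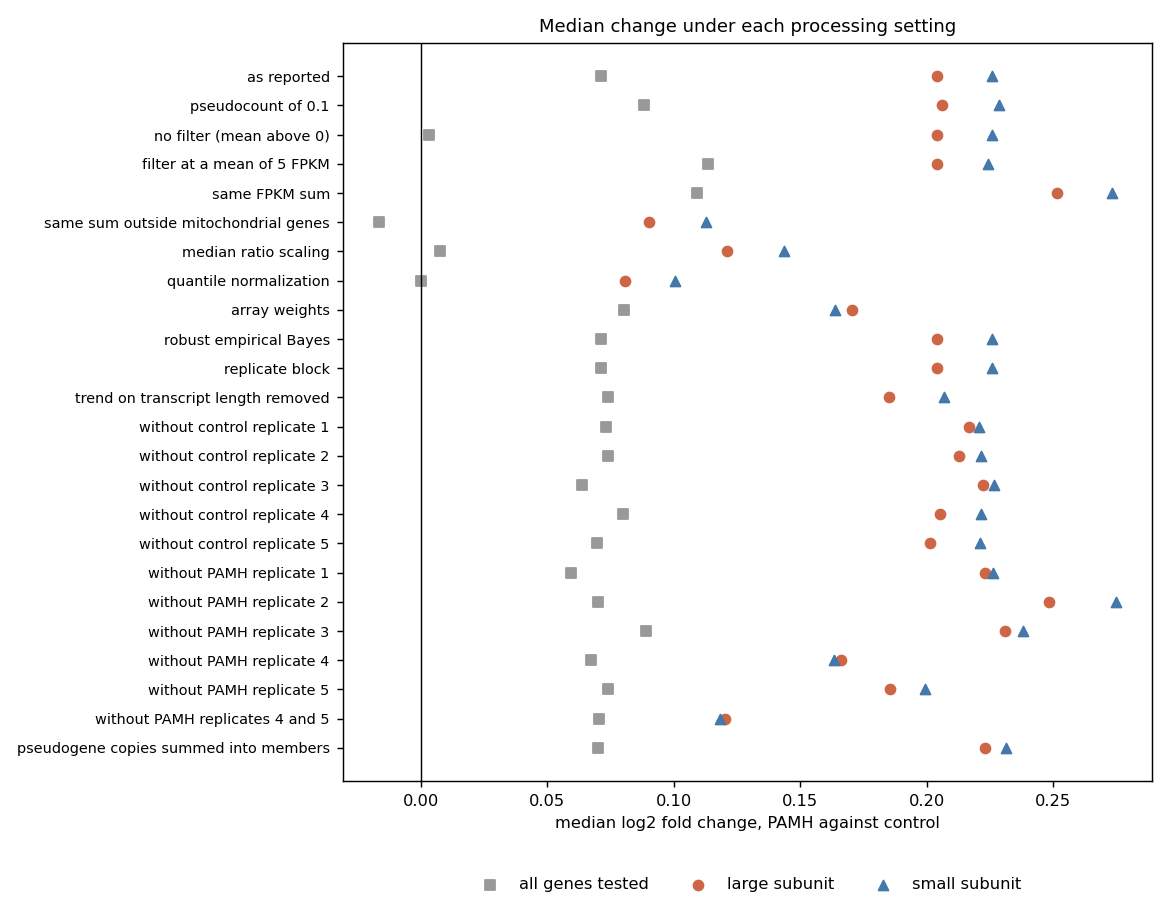
Median log2 fold change, PAMH against control (x axis), of all genes tested, the large and the small subunit under each processing setting (y axis). Both subunits lie right of all genes in every setting, nearest to them without PAMH replicates 4 and 5, where all are between 0.07 and 0.12.

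Among ribosomal proteins whose genes carry other symbols, Rack1 rose and Fau did not pass. Rack1, a scaffold on the head of the small subunit, stood at 40.7, 41.3, 40.8, 37.1 and 38.5 FPKM in controls and 48.2, 48.8, 42.2, 54.1 and 55.8 FPKM in PAMH hearts, with no overlap. Its mean went from 39.7 ± 1.78 to 49.8 ± 5.36 FPKM (0.31 on the log2 scale, SE 0.08, adjusted p = 0.039). The call was lost under the scaling outside the mitochondrial genes, median ratio scaling and quantile normalization. It was lost as well with no filter on low values (limma adjusted p = 0.0801), with the replicate number as a block (0.103) and without PAMH replicates 4 and 5 (0.129). Leaving out 1 replicate at a time, the call was kept only without PAMH replicate 3. Fau, which encodes a ubiquitin-like protein fused to a ribosomal protein, had a log2 fold change of 0.16 (adjusted p = 0.326).

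Messages of other proteins that share the TOP start had a median close to that of all genes. Of 20 such genes, all tested, 1 rose and 1 fell (5% each, against 4.95% of all genes called higher and 1.24% lower), and the median log2 fold change was 0.06. Tpt1, a small abundant growth-associated protein, went from 309.5 ± 13.0 to 369 ± 26.3 FPKM (a log2 difference of 0.25 with an SE of 0.07, adjusted p = 0.0431), and its call was lost under each of the 3 scalings that Rack1's was lost under. Eif4b, a cofactor of the initiation helicase, was at 37.5, 37.6, 38.2, 36.5 and 35.4 FPKM in controls and 32, 29.6, 29.8, 27.2 and 29.0 FPKM in PAMH hearts. Every PAMH heart was below every control, and the mean went from 37.0 ± 1.11 to 29.5 ± 1.73 FPKM (-0.32 on the log2 scale, SE 0.06, adjusted p = 0.0138). The Eif4b call was lost with the replicate number as a block (limma adjusted p = 0.0519) and kept under the other alternatives. Among the genes not called, Eef1g, an elongation factor subunit, had 0.31 (adjusted p = 0.054) and Eef1a1 -0.05 (adjusted p = 0.684).

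Genes that control these messages did not pass. Of 24 genes of the mTORC1 and Larp1 pathway and of transcription factors of ribosomal protein genes, 20 were tested, 0 were called by limma in either direction, 1 had an unadjusted p under 0.05 (against 24.0% of all genes in either direction), and the median log2 fold change was 0.04. Of 24 genes for ribosomal protein chaperones and late subunit assembly, 20 were tested and 1 rose (5%, the share of all genes being 4.95%), with a median of 0.15. In this list 7 of the 20 had an unadjusted limma p under 0.05 (against 24.0% of all genes). A positive log2 fold change was seen in 19 of the 20 (67.3% of all genes). The gene that rose was Bysl, an assembly factor of the small subunit, from 4.33 ± 0.621 to 6.32 ± 1.12 FPKM (a log2 difference of 0.45 with an SE of 0.12, adjusted p = 0.0394), and this call too was lost under those 3 scalings. The Bysl call was lost as well with no filter on low values and without PAMH replicates 4 and 5 (limma adjusted p = 0.118 each). Leaving out 1 replicate at a time, it was kept only without control replicate 2, PAMH replicate 3 or PAMH replicate 4. Of 16 genes of ribosome quality control and ribophagy, 15 were tested, none was called by limma in either direction, 2 had an unadjusted p under 0.05 (24.0% of all genes), and the median was 0.03.

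Copies and neighbours limit what can be said of single genes. By symbol, 52 of the 78 have pseudogene copies, named as the gene followed by -ps and a number. Copies under other names were not counted, and the search by symbol could find none for Rpsa. Copies named Rps3a were likewise not matched to Rps3a1. Reads of near-identical copies may have been split between them. Over the 10 samples, the counted copies of Rpl31 summed to a mean of 123 FPKM against 55.2 for the gene. For Rpl35a these means were 50.7 and 25.0 FPKM, and for Rps15a 15.5 and 15.6. Other genes were far above their copies, such as Rpl36 at 352 against 12.6 FPKM. Ranks of single genes by level therefore hold only for the FPKM as listed. With the FPKM of the counted copies added to their parents, 6 genes passed (4.97% of all genes), and Rpl9 was the one that no longer did. Neither the counting of strand nor of multiple matches is given in the sources used here, and genes that overlap on the opposite strand may share reads. Of the 7 genes that passed, Rpl9, Rpl7l1 and Rps26 share no exon bases with another gene of the deposited table. Genes within introns were not searched. Rpl4, Rpl13 and Rpsa hold small RNA genes on their own strand and Rps27a overlaps Clhc1 on the opposite strand, and the highest mean level among these neighbours was 0.0828 FPKM. Among the genes that did not pass, Rpl32 and Rpl35 had the highest opposite-strand neighbours, Cand2 at 12.7 and Arpc5l at 12.5 FPKM, and Rpl19 holds a miRNA gene listed at 443 FPKM, so that some of its reads may be counted there.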

How the data were processed

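The deposited table holds FPKM values for 10 heart samples, made by the authors. Tools named per the submitters' processing notes, with no order or role, were HISAT2 2.2.1, HTSeq 0.13.5, DESeq2 1.18.1, Trimmomatic 0.38, FastQC 0.11.9 and R 3.4.1, with build mm10. Which tool computed FPKM, on which annotation, and how strand and multiple matches were handled is not given in the sources used here. FPKM does not show depth, and whole reads could not be recovered.

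Gene identifiers were matched to GENCODE vM21 (55154 of 55335 found). Samples were grouped by title. A gene was tested if its mean over the 10 samples reached 1 FPKM (9439 genes), with limma 3.58.1 in R 4.3.3 on log2(FPKM + 1), PAMH against control, with an intensity trend in the empirical Bayes step, 2-sided, Benjamini-Hochberg over all genes, threshold 0.05. Fold changes on this scale understate the change of low genes. The script was tested on simulated data. The changes planted there were larger than most of those here and the noise was independent between genes. That test therefore does not show how often changes as small as these are found.

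The members and lists were chosen with earlier results of these data known. Named are all genes past the threshold, the 3 highest and 3 lowest in level and the 5 largest and 3 smallest changes of each subunit, the P stalk, the 5S RNP, Rpsa, Rps6, Rps27a, X-linked genes, and copies and relatives; of other lists, Rack1, Fau and at most 4 genes past the threshold. Others named (Rpl37, Rpl19, Rpl23a, Rps3, Eef1g, Eef1a1 and genes listed by name only) were chosen after their values were seen. Rpl24 and Rpl29 were moved from the exit tunnel group to the other core proteins, and Rps27rt was put with the copies, after the lists were written. Alternatives changed the pseudocount, filter, scaling, weights, block, length trend and samples. Sums over genes are descriptions with no test. Sequences are from RefSeq. Some genes are not reported here by name.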

Additional observations from a re-analysis of the deposited data

Results flagged for a closer look

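In 1 of 88 groups of 5 hearts examined (1.14%), 1 heart lay far from the other 4 of its group. Chance alone marks about 1 in 20 such groups if they are independent. These groups were genes and sums measured in the same hearts, so the share cannot be compared with that rate. Rps19bp1 was at 6.20 FPKM in PAMH replicate 4 and between 3.94 and 4.31 FPKM in the other PAMH hearts. That library also had the fewest genes above 0 (16113) and the highest summed red cell level (863 FPKM), and their part in this value was not tested.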

How the results depend on the processing

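The direction of both medians held in all 23 alternatives, and the counts of calls did not. Called higher in the large and small subunit, against 4 and 3 as reported, were 1 and 1 with no filter on low values (0.732% of all genes), 9 and 5 with a filter at a mean of 5 FPKM (11.6% of all genes called higher), 8 and 6 with each sample rescaled to the same FPKM sum, 0 and 0 with the same sum outside the mitochondrial genes, 0 and 0 with median ratio scaling, 2 and 1 with quantile normalization, 9 and 7 with array weights (11% of all genes) and 0 and 0 without PAMH replicates 4 and 5. With a pseudocount of 0.1 they were 4 and 4, with a trend on transcript length removed 4 and 4, with robust empirical Bayes 4 and 3, and with pseudogene copies summed into their parents, an alternative chosen after seeing the data, 3 and 3. Leaving out 1 replicate at a time gave 0 to 10 large and 0 to 7 small subunit genes, with medians of 0.17 to 0.25 and 0.16 to 0.27. The medians fell to 0.0901 and 0.113 with the same sum outside the mitochondrial genes, to 0.0808 and 0.101 with quantile normalization, and to 0.120 and 0.118 without PAMH replicates 4 and 5; the cause was not tested.

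With the replicate number as a block, 1 large (Rpl11) and 1 small subunit gene (Rps27a) were called, and 175 genes in all were higher (1.85%) and 64 lower. The numbers were not taken to pair the samples: the correlations of same-numbered deviations from the group means were 0.09, 0.16, -0.04, -0.19 and -0.04. Of the PAMH samples, the one with its own number was the best match for 1 of 5 control samples.

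Of 919 values of single named genes, 754 kept direction and side of the threshold, 121 lost the call, 24 gained one and 20 changed sign. The sign changed for Rpl34 with the same sum outside the mitochondrial genes (-0.0673), median ratio scaling (-0.0375), quantile normalization (-0.0918), array weights (-0.0555), without PAMH replicates 4 and 5 (-0.0289) and with copies summed (-0.000600). Leaving out 1 replicate at a time, Rpl34 ran from -0.0169 without PAMH replicate 4 to 0.0926 without PAMH replicate 2. It changed for Rps29 with the same sum outside the mitochondrial genes (-0.0628), median ratio scaling (-0.0318), quantile normalization (-0.0665) and without PAMH replicates 4 and 5 (-0.0146). It changed for Rps14 with the same sum outside the mitochondrial genes (-0.0270), quantile normalization (-0.0284), array weights (-0.0154) and without PAMH replicates 4 and 5 (-0.0239). It changed for Rpl38 (-0.0177 and -0.0346) and Rps21 (-0.0123 and -0.00803) with the same sum outside the mitochondrial genes and quantile normalization, and for Rpl32 without PAMH replicates 4 and 5 (-0.0125). None of these genes was called as reported. FPKM gives no counts, so counting error could not be separated from the spread between hearts, and 5 hearts a group limit the precision.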

Other observations

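Most tested pseudogene copies named after these genes had a positive log2 fold change. Of 281 in the table, 78 reached a mean of 1 FPKM, and 72 of these were positive, a direction that 67.3% of all genes shared. The median was 0.19, against 0.07 over all genes tested. In the large and small subunit genes, with or without copies, it was 0.20 and 0.23. No median was taken over the parent genes alone. The summed FPKM of the copies was 1227 ± 6.67 in controls and 1414 ± 145 in PAMH hearts (SD, n = 5 each), 15.3% higher, and 10.7% higher without PAMH replicate 4. Of the 78, 3 passed the same limma test (3.85%, below the 4.95% of all genes called higher) and none was lower, and these 3 are named here after their values were seen. Rps27a-ps2 went from 22.3 ± 1.49 to 26.9 ± 1.46 FPKM (log2 fold change 0.26, adjusted p = 0.0443), Rps6-ps4 from 80.7 ± 2.10 to 96.1 ± 6.81 FPKM (0.25, adjusted p = 0.0447) and Rpl9-ps7 from 2.75 ± 0.190 to 3.91 ± 0.461 FPKM (0.38, adjusted p = 0.0169). Reads of a parent gene can be assigned to such a copy, and how many were was not tested.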
